A study of Dugesia japonica with 18 samples.

Results

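The transcripts described here are the 100 most abundant gene models of the planarian Dugesia japonica whose level stayed near its starting point through a week after X-irradiation. They were picked from 25566 gene models by their measured levels. For each gene model CPM (the count divided by the library's summed gene model counts and scaled to 1000000) was averaged over the 3 libraries of a day. The change from day 0 was taken as the log2 ratio of the day means, each raised by 0.5 CPM. Gene models with a change of less than 0.5 in size at each of 5 later days (less than 1.41-fold either way) were ranked by their day 0 mean, and the first 100 are the members. Their closeness to day 0 is therefore how they were chosen and not a finding, and it is given as a description with no test.

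Whole animals about 5 mm long, of the clonal strain SSP, were starved for at least a week beforehand, and RNA of the lysed animals was read by 3' mRNA sequencing, which counts the 3' ends of transcripts. There were 18 libraries in 6 groups of 3 biological replicates: animals not irradiated (day 0, per the series' design text) and animals at days 0.5, 1, 3, 5 and 7 after X-rays. The labels give a dose of 150 Roentgens for all samples, with no exception for day 0; the design text does not list day 0.5, which the titles give. The sources used here do not state how many animals went into a library. No unirradiated animals were sampled after day 0, so the effects of X-rays and of elapsed time, including further starvation, cannot be told apart.

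Planarians renew their tissues throughout life from neoblasts, stem cells that are their main dividing cells, and X-rays destroy dividing cells. The differentiated tissues, such as muscle, gut, nerve and epidermis, are not dividing and lose cells more slowly. In animals generally, the most abundant messenger RNAs include those for ribosomal proteins, cytoskeletal and muscle proteins and, where they are captured, mitochondrial transcripts. The deposited files give no name for any ID, so which of these classes a member belongs to is not known here. In whole-body RNA, fewer cells of a type and less RNA per cell cannot be told apart. A CPM is a share of the library, so a steady CPM does not say that the amount of RNA per animal was steady.

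Libraries held from 4679195 to 12605652 gene model counts, with the lowest totals at days 5 and 7. The day 7 library of replicate 3 stood apart from the others of its day: the log2 ratio of its TMM scaling (trimmed mean of M values, used for the tests) to its library total was 0.17, while the mean of its day was 0.05 and the lowest of the 18 was -0.08. The member with the fewest reads in any library still had 1692 counts there. Counting error of a member was small beside the differences between replicates: the median counting SD was 0.02 on the log2 scale, and the median SD between replicates of a day was 0.11.

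The members held close to 3 in 10 counts of the animals' mRNA libraries. Their summed share was 31.1 ± 0.68% on day 0, 31.8 ± 1.43% on day 0.5 and 29.1 ± 0.566% on day 1 (SD, n = 3 each). It was 30.2 ± 0.948% on day 3, 29.9 ± 0.331% on day 5 and 29.1 ± 0.999% on day 7. Every library lay between 27.9% and 33%, and the lowest was day 7 replicate 3. The 3 most abundant members took 14.1 ± 0.375% of the counts at day 0 and 12.5 ± 0.521% on day 7, and the other 97 took 17 ± 0.305% and 16.6 ± 0.514%. The day 0 and day 7 libraries did not overlap in the share of the top 3, with 13.8% to 14.5% against 11.9% to 12.9%. For the other 97 they did overlap, with 16.8% to 17.4% against 16% to 17.1%.

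**Figure D1:**
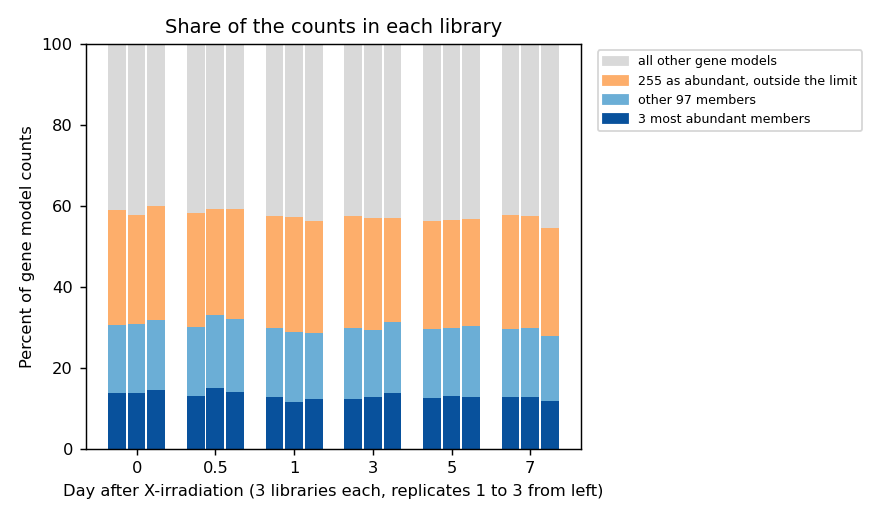
Percent of the gene model counts (vertical axis) in each of the 18 libraries, grouped by day on the horizontal axis; the stacked bars show the 3 most abundant members, the other 97 members, 255 gene models of the same abundance outside the limit, and all other gene models. The members together lie between 27.9% and 33% in every library.

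Abundance was spread very unevenly among the members. At day 0, 4 members averaged at least 10000 CPM, 7 averaged from 5000 to 10000, 32 from 1000 to 5000, 47 from 500 to 1000, and 10 were below 500. The 8 most abundant gene models of the whole table were all members, as were 14 of the first 20 and 29 of the first 50. The limit was met by 39 of the first 100 and by 100 of the first 355 (28.2%), where the list ends. Below that the share was higher again, at 366 of the first 1000 (36.6%) and 2399 of the first 5000 (48%). Among the 17129 gene models with enough reads to be tested, 45.6% met the same limit. Ranks compare reads per gene model without a correction for length, and lengths are not used here.

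**Figure D2:**
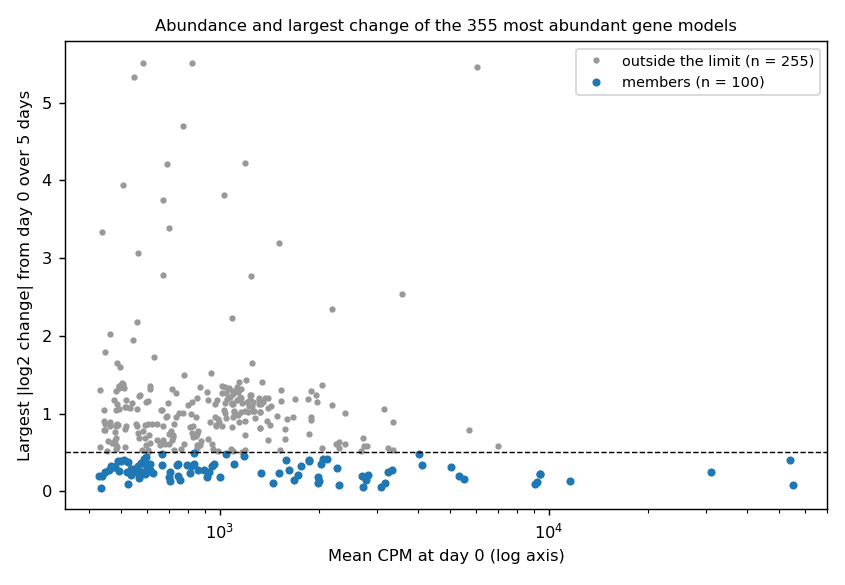
Mean CPM at day 0 (horizontal, log axis) and the largest log2 change from day 0, in size, over the 5 later days (vertical) for the 355 most abundant gene models; each point is 1 gene model and the dashed line is the limit of 0.5. The 100 members lie below the line by the way they were chosen, and the 8 points farthest to the right are all members.

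DjGI002446-001 was the most abundant gene model and among the 7 members whose largest change was below 0.1. Its 3 libraries stood at 56089, 52610.5 and 56895 CPM at day 0, at 56673, 55939 and 55439 CPM at day 0.5 and at 56682, 50928 and 57089 CPM at day 1. They stood at 58704, 59712 and 57214 CPM at day 3, at 61435, 57942 and 51361 CPM at day 5 and at 61896, 55018 and 56674 CPM at day 7. The libraries of day 0 and day 7 overlapped, and the lowest and highest of the 18 libraries were day 1 replicate 2 and day 7 replicate 1. Its log2 changes from day 0 lay between -0.01 (day 1) and 0.08 (day 3).

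DjGI017786-001 began at nearly the same level and did not keep it. It stood at 52340.5, 54621 and 55739 CPM at day 0 and at 46264, 59299 and 52913 CPM at day 0.5. At day 1 the libraries were at 43998, 40404 and 40719 CPM, all below the lowest day 0 library. They were at 41077, 41654 and 51323 CPM at day 3, 38524, 45721 and 49644 CPM at day 5, and 40006, 45216 and 37664 CPM at day 7. From day 1 onward no library reached the lowest day 0 value, and the log2 changes were -0.38, -0.28, -0.28 and -0.40 at days 1, 3, 5 and 7.

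DjGI019377-001 was also lower from day 1 onward, by less. Its day 0 libraries were at 29903, 31134 and 32218 CPM and its day 0.5 libraries at 26238, 34800.5 and 32420.0 CPM, a wide spread that enclosed the day 0 values. The means were 26322 ± 976 CPM on day 1, 26339 ± 2497 on day 3, 26212 ± 1096 on day 5 and 26150.2 ± 1331 on day 7 (SD, n = 3 each). Each of these 12 libraries was below the day 0 libraries, the highest of them being day 3 replicate 3 at 29158 CPM. The level stayed within 1% of 26322 CPM, the day 1 mean, in the means of days 3 to 7.

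DjGI019249-001, the fourth in rank, stood at 10678, 11940.0 and 12129 CPM at day 0. It averaged 12133 ± 1343 CPM on day 0.5, 11009.9 ± 1369 on day 1, 10877 ± 1251 on day 3, 10584 ± 1079 on day 5 and 10728 ± 366 on day 7 (SD, n = 3 each). The day 7 libraries, at 10461, 10578 and 11144 CPM, overlapped those of day 0, and the log2 change was -0.11.

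The fifth and sixth gene models in rank shared the first number of their ID and had nearly the same counts. DjGI001770-002 averaged 9430.0 ± 383 CPM on day 0, 9526 ± 1320.0 on day 0.5, 8159 ± 177 on day 1, 8156 ± 716 on day 3, 8078 ± 168 on day 5 and 8064 ± 284 on day 7 (SD, n = 3 each). The count of DjGI001770-002 divided by that of DjGI001770-001 lay between 0.995 and 1.01 in the 18 libraries. If the IDs share near-identical sequence, counting could have divided their reads, and which reads belong to which ID cannot be told from these counts. Summed, the pair stood at 18837 CPM at day 0 and 16108 CPM at day 7, and none of its libraries from day 1 onward reached the lowest day 0 library of either ID.

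**Figure D3:**
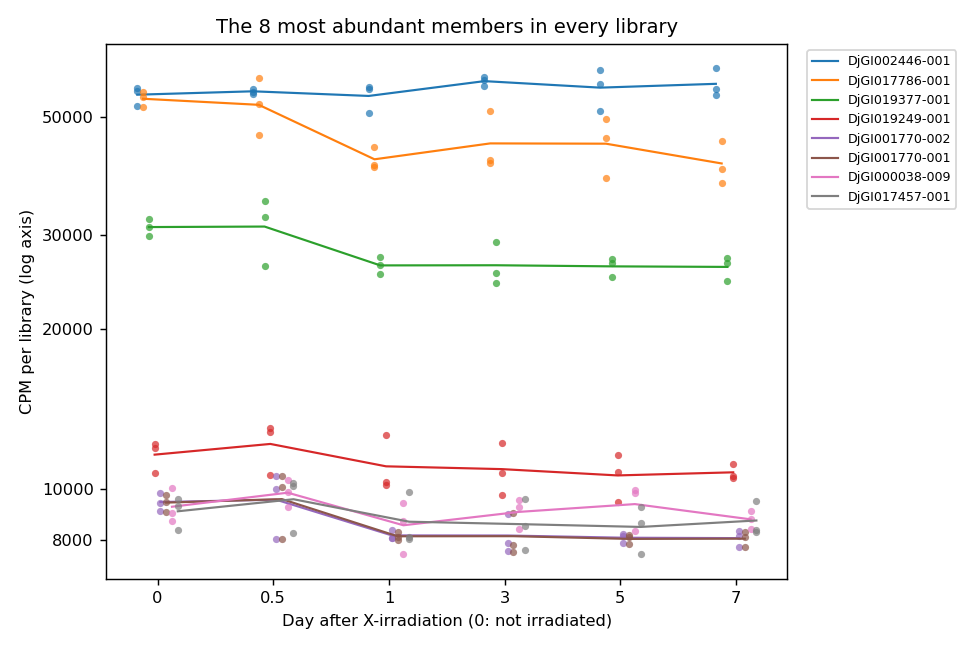
CPM in every library (points, log axis) and day means (lines) of the 8 most abundant members against the day after X-irradiation, with points shifted sideways for clarity. DjGI002446-001 stays between 50928 and 61896 CPM, while DjGI017786-001 and DjGI019377-001 are below their day 0 libraries from day 1 on; the lines of the 2 DjGI001770 IDs coincide.

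Shared first numbers were common among the members. The 100 IDs carried 86 different first numbers: 25 members shared theirs with another member, in 11 groups. Of the 100, 67 were the only ID of their first number in the table and 33 were not, and of those 33 only 4 held at least 90% of the counts under that number. Within the 11 groups there were 18 pairs of members, and in 7 of these the counts stayed within 10% of each other in each of the 18 libraries. These members are therefore uncertain as separate transcripts. When counts were summed over each first number before the rule was applied, 98 of the 100 had a first number that was chosen and all 100 had one within the limit.

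The largest group was the first number DjGI000038, with 9 IDs in the table and 4 members. DjGI000038-009 held 54.9% of the counts of that number and averaged 9239.7 ± 715 CPM on day 0 and 8748 ± 351 CPM on day 7 (SD, n = 3 each). DjGI000038-008, DjGI000038-007 and DjGI000038-005 held 16.3%, 15.6% and 11.8%, and their log2 changes at day 7 were -0.11, -0.12 and -0.03. The 008 and 007 IDs moved together between replicates of a day, with a correlation of 0.98 across the 18 libraries after each day's mean was removed. DjGI000038-009 followed them less closely, at 0.55 and 0.60, so reads of this number were not divided in a fixed ratio among all 4.

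Within the limit, the members took different courses. The largest change of a member, in size, had a median of 0.26 on the log2 scale. It was below 0.1 in 7 members and below 0.2 in 27, and it was at least 0.4 in 12. The largest change came at day 7 in 44 members, at day 3 in 19, at day 5 in 17, at day 1 in 13 and at day 0.5 in 7. All 5 changes were above 0 in 29 members and below 0 in 20, and 51 members had changes of both signs.

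In CPM the members leaned slightly upward at day 0.5 and downward at day 7. At day 0.5, 72 of the 100 were above day 0, with a median log2 change of 0.07 and an interquartile range of -0.02 to 0.15. The numbers above day 0 were 52 at day 1, 57 at day 3 and 54 at day 5, with medians of 0.02, 0.04 and 0.02. At day 7, 41 were above day 0, with a median of -0.05 and an interquartile range of -0.21 to 0.18. Over all 25566 gene models the median change was 0 at days 0.5, 1 and 3, 0.02 at day 5 and 0.03 at day 7. With TMM scaling the member medians were 0.09, -0.02, 0.02, -0.06 and -0.13 at the 5 days in order. Beside them the medians of all gene models tested were -0.005, 0.004, 0.009, 0.02 and 0.02. The sign of the member median at days 1 and 5 thus depended on the scaling. The spread among members widened with time, from a range of -0.27 to 0.39 at day 0.5 to -0.49 to 0.48 at day 7, where the limit closes it on both sides.

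**Figure D4:**
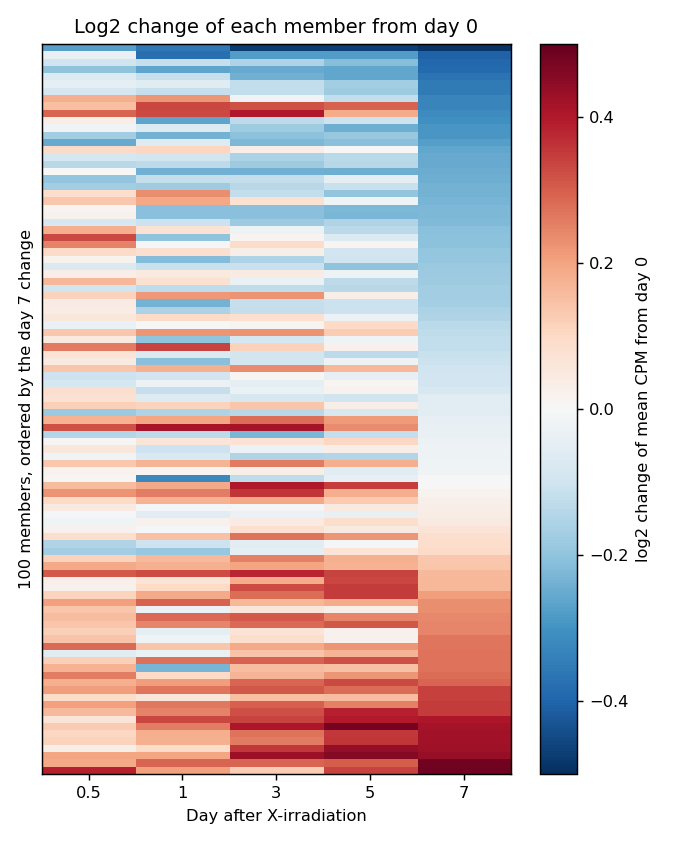
Log2 change of the day mean from day 0 (colour, -0.5 to 0.5) for the 100 members (rows, ordered by the day 7 change) at the 5 later days (columns). Red rows at the bottom and blue rows at the top grow stronger toward day 7, while 51 members change sign along the way.

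The most even member was DjGI006746-001, near the bottom of the abundance range at rank 352 of the whole table. It stood at 448, 428 and 433 CPM at day 0 and at 436, 437 and 466 CPM at day 7. Its lowest library was day 1 replicate 2, at 418 CPM, and its highest day 5 replicate 3, at 479 CPM. No day mean differed from day 0 by more than 0.05 on the log2 scale. DjGI014013-001 was the next most even by its means, with changes from -0.05 to 0.04. Its replicates were far less even, from 2205 CPM (day 5 replicate 3) to 3086 CPM (day 7 replicate 1), so its flat means rest on libraries that differed by more than the days did.

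At the edge of the limit stood DjGI005754-001, just inside it. Its day 0 libraries were at 874, 822 and 806 CPM and its day 7 libraries at 590.0, 617 and 572 CPM, with no overlap. Its log2 changes were -0.27, -0.36, -0.48, -0.47 and -0.49 at the 5 days, a lower level reached by day 3 and then held. DjGI017634-001 was the nearest to the limit on the other side, at 969, 1075 and 1090.0 CPM at day 0 and 1391, 1497 and 1498 CPM at day 7. Its course was uneven, with log2 changes of 0.39 at day 0.5, 0.12 at day 3 and 0.48 at day 7.

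DjGI015319-001 was higher at each later day, with little change from day 1 to day 5. Its libraries stood at 613, 704 and 691 CPM at day 0, and its means were 762 ± 65.4 CPM on day 0.5, 819 ± 25.8 on day 1, 819 ± 19.4 on day 3, 826 ± 25.4 on day 5 and 936 ± 8.99 on day 7 (SD, n = 3 each). Its 3 day 7 libraries, at 930.2, 946 and 930.5 CPM, were above every other library. Just outside the limit, DjGI011697-001 averaged 1172 ± 12.5 CPM on day 0 and 1659 ± 49.5 CPM on day 5, a log2 change of 0.501, and its changes at the other days were at most 0.44. The 100th member, DjGI017078-001, averaged 431 CPM at day 0, and the next gene model in line, DjGI016892-001, averaged 430.0 CPM, so the lower end of the list is set by a difference well inside the replicate spread of 30.9 and 47 CPM (SD, n = 3 each).

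Differences from day 0 inside the limit were also set against the spread between replicates. The quasi-likelihood test of edgeR was fitted over all 18 libraries and 17129 gene models with TMM scaling. A gene model was called where its p, adjusted over these within a comparison (Benjamini-Hochberg), was below 0.05. The comparisons share the day 0 libraries, and the rule used the same contrasts, so the counts are a description and nothing about the members is read from them. At day 0.5, 5 members were called, all higher, beside 10% of all gene models tested (2.59% higher, 7.44% lower). At day 1, 16 were called, 10 higher and 6 lower, beside 20% (7.17% higher, 12.8% lower). At day 3, 32 were called, 25 higher and 7 lower, beside 31.8% (13.3% higher, 18.5% lower). At day 5, 34 were called, 16 higher and 18 lower, beside 35.7% (14.8% higher, 20.9% lower). At day 7, 46 were called, 13 higher and 33 lower, beside 41.6% (18.4% higher, 23.2% lower). No member was called at all 5 days and 37 were called at none, and the same shares over all gene models tested were not computed. In the joint test over the 5 days 50 were called, beside 42.2%.

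The rule caps the size of a called change as of any other. At day 7 the called changes had a median size of 0.33 on the log2 scale, and the smallest was 0.21. The median standard error of a member's log2 change was 0.09 at each of the 5 days. The split into higher and lower followed the scaling, in the members and in the whole table. At day 7 library totals called 25 members higher and 31 lower, beside 22.2% and 20.5% of all gene models tested. Upper-quartile scaling called 23 and 22 there, beside 23.9% and 20.5%. The median log2 change of the 17129 tested at day 7 was 0.02 for TMM, 0.10 for library totals and 0.12 for the upper quartile.

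At the earlier days library totals called 10 members higher and 2 lower at day 0.5, beside 2.22% and 7.76% of all tested. They called 26 and 9 at day 1, beside 8.93% and 11.9%, and 30 and 14 at day 5, beside 18.5% and 18.1%. Upper-quartile scaling called 22 higher and 2 lower at day 1, beside 11.2% and 11.6%. It called 32 and 1 at day 3, beside 16.8% in each direction, and 21 and 12 at day 5, beside 18.7% and 18.8%. ERCC scaling used the added control RNAs, which held 190 to 487 counts in a library. It called 21 higher and 1 lower at day 3, beside 12% and 13.3%, 10 and 1 at day 5, beside 12.9% and 15.9%, and 8 and 13 at day 7, beside 14.8% and 19.9%.

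Leaving out single libraries moved the counts of calls in the members and in the whole table, and no loss is read as particular to the members. The 5 members called at day 0.5, beside 10%, became 0 without day 0 replicate 1, beside 5.02%. They became 2 without day 0 replicate 2 (beside 7.37%), 3 without day 0.5 replicate 2 (5.35%) and 2 without day 0.5 replicate 3 (6.36%). Without day 7 replicate 3, which enters the shared estimate of spread, they became 13, beside 11.8%. The 16 at day 1, beside 20%, became 5 with day 0 replicate 1 left out (14.1%) and 9 with day 0 replicate 2 left out (15.6%). They became 7, 7 and 9 with day 1 replicate 1, 2 or 3 left out (15.8%, 15% and 15.1%), and 30 with day 7 replicate 3 left out (21.7%). The 32 at day 3, beside 31.8%, became 21 with day 0 replicate 1 or 3 left out (25.8% and 26.9%), and 20 with day 3 replicate 1 or 2 left out (26.9% for each). The 34 at day 5, beside 35.7%, became 20 with day 0 replicate 1 left out (29.6%) and 19 with day 5 replicate 1 left out (30.2%). The 46 at day 7, beside 41.6%, stayed between 39 without day 0 replicate 1 (35.4%) and 51 without day 7 replicate 2 (38.1%).

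Libraries of a later day that did not overlap those of day 0 were frequent among the members, again beside a high background. In CPM, 29 members lay above and 7 below day 0 without overlap at day 0.5, beside 10.2% and 17% of all gene models tested. At day 1, 40 lay above and 20 below, beside 18.7% and 18.4%. At day 3 the numbers were 37 and 21, beside 21.4% and 22.8%, and at day 5 they were 35 and 21, beside 25.6% and 22.2%. At day 7, 30 lay above and 31 below, beside 24.6% and 23.2%.

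Changes from one sampling day to the next do not use day 0, although the rule holds them below 1 in log2 units. Between days 0.5 and 1, 1 member was called by edgeR, lower, beside 1.08% of all gene models tested (0.847% lower). From day 1 to day 3, 1 was called, lower, beside 3.02% (0.543% higher, 2.48% lower). From day 3 to day 5 edgeR called 0, beside 1.2%, while 6 members had an unadjusted p below 0.05, beside 9.28%, and DESeq2 also called 0, beside 1.4%. From day 5 to day 7, 2 were called, both lower, beside 2.6% (1.62% lower). These are DjGI007025-001, DjGI006067-001, and, in the last step, DjGI017473-001 and DjGI001164-003. DjGI017473-001 and DjGI001164-003 averaged 598 and 513 CPM at day 0, 734 and 584 CPM at day 5, and 476 and 412 CPM at day 7, so each was above its starting level before it was below it.

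The intervals of the same changes are given as a description. They come from the contrasts and libraries that chose the members, so they do not measure how surely a member is steady. The 95% interval of the TMM-scaled log2 change, approximated from the edgeR F value, reached a median of 0.19 to either side at each of the 5 days. It lay wholly within 0.5 of day 0 in 94, 91, 89, 88 and 67 members at the 5 later days in order. In 59 of the 100 it did so at all 5 days, and in 41 it reached past the limit on at least 1 day. DjGI002446-001 was among the former, with intervals between -0.23 and 0.24 over the 5 days. DjGI005754-001 was past the limit itself on this scale, with log2 changes of -0.50, -0.55 and -0.57 at days 3, 5 and 7.

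Libraries left out of a repeated choice gave values that the repeated choice did not use. The rule was applied to the libraries of 2 replicate numbers, and the changes of the 100 gene models it chose were then read in the 6 libraries of the third number, each later library against the single day 0 library. Without replicate number 1, 86 of the 100 were within 0.5 of day 0 at all 5 days in the left-out libraries. Without number 2 it was 90, and without number 3 it was 87. The 3 sets shared 96, 96 and 94 gene models with the members. The members themselves were chosen from all 18 libraries, so for them no library was left out. Over all 17129 gene models tested the shares were 29.3%, 33.5% and 24.5%, although most of these have fewer reads and so more counting error.

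Gene models that the rule had turned away are closer in abundance, but they were set aside for a change beyond the limit in the libraries used for the choice. Part of the difference from the chosen follows from that, so it is a description. Of these, 9 of 245 (3.67%), 14 of 256 (5.47%) and 11 of 253 (4.35%) were within 0.5 at all 5 days in the left-out libraries. The median largest change in the left-out libraries was 0.30, 0.28 and 0.34 for the chosen gene models, against 1.10, 0.92 and 1.04 for those turned away. At day 7 alone, 92, 95 and 91 of the chosen were within 0.5. The largest departure was 1.17, in DjGI019312-001 at day 7 of replicate 3, the library that stood apart. DjGI019312-001 is not among the 100 members: it was chosen without replicate number 3, when 94 of the 100 chosen were members. Replicate numbers name the libraries here and were not taken to pair them.

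**Figure D5:**
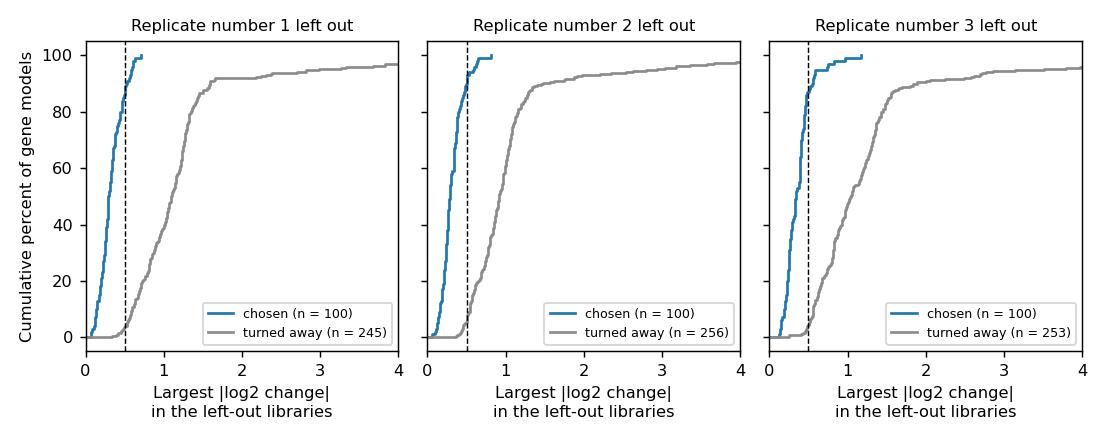
Cumulative percent of gene models (vertical) against their largest log2 change from day 0, in size, over 5 days (horizontal) in the 6 libraries of the replicate number left out of the choice, 1 panel per number; blue is the 100 chosen from the other 12 libraries and grey the equally abundant gene models turned away, of which 7, 6 and 10 lie beyond the axis end at 4. At the dashed limit of 0.5 the blue lines stand at 86%, 90% and 87% and the grey lines near 4% to 5%. The grey set had changes beyond the limit in the other 12 libraries, so part of the gap follows from the choice.

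The spread between replicates was low in the members. The pooled SD of TMM-scaled log2 CPM within days (12 degrees of freedom) had a median of 0.11 over the members, with quartiles of 0.08 and 0.13. It was 0.14 over the 255 gene models of the same abundance outside the limit and 0.23 over all gene models tested. The rule did not use this spread, but a gene model with uneven replicates is less likely to have day means within the limit, so no test is given. DjGI010437-001 had the lowest SD, 0.04, and its level was higher at all 5 later days, going from 556, 590.0 and 546 CPM at day 0 to 724, 688 and 715 CPM at day 5 and 677, 668 and 725 CPM at day 7. DjGI010567-001 had the highest, 0.28. It stood at 3793, 2359 and 2390.4 CPM at day 1 and at 4154, 4835 and 3141 CPM at day 7, so its replicates differed by more than its day means, which lay between 2847 and 4043 CPM.

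Replicate differences were shared by groups of members. After removal of each day's mean, the first 3 components of log2 CPM held 27.2%, 23.9% and 17.8% of the variance of the 100 members across the 18 libraries. Of 4932 pairs of members with different first numbers, 21 had a correlation of at least 0.9 and none had -0.9 or less, and the median was 0.05. These correlations are over 18 libraries with 12 degrees of freedom, and the values share library totals, so they are a description. They were not used in the choice of members, which took day means. DjGI019377-001 correlated at 0.98 with each of the DjGI001770 IDs and at 0.86 with DjGI017786-001. These 4 were also the members among the first 6 of which no library from day 1 onward reached the lowest day 0 library. DjGI019249-001 correlated at 0.98 with DjGI017457-001 (rank 8) and at 0.37 with DjGI019377-001. The top-ranked DjGI002446-001 went with neither, at -0.10 and -0.34 with DjGI019377-001 and DjGI019249-001, and at 0.94 with DjGI015956-001 (5343 CPM at day 0 and 4699.9 CPM at day 7). These pairs were picked after their values were seen.

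The gene models of the same abundance outside the limit show what the members are set against. The largest change was toward a lower level in 139 of the 255 and toward a higher one in 116. Their median log2 change was 0.05, 0.12, -0.04, -0.46 and -0.65 at the 5 later days in order, and at day 7 the values ran from -5.50 to 1.18. At day 0.5, 227 of the 255 were still within 0.5 of day 0, and at day 7, 19 were. For 27 of them day 7 alone was beyond the limit, and 19 were beyond it at all 5 days. Their summed share of the counts was 27.8 ± 0.652% on day 0 and 27.5 ± 0.836% on day 7 (SD, n = 3 each), with 141 of them at least 0.5 lower and 95 at least 0.5 higher at day 7.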

How the data were processed

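Titles gave the day and replicate number of each sample. The deposited table holds estimated counts per gene model, not normalized, and the authors' second table gives each library's total count. Salmon, fastp 0.21.0 and BWA 0.7.17-r1188 are listed, with no role or order, per the submitters' processing notes. The sources used here do not give the reference. Sampling days and totals matched between the tables in all 18 libraries. The 92 ERCC rows (0.004% of counts) were left out, and 38 values that were not whole were rounded for the tests.

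Members were chosen on CPM from library totals. Tests used edgeR 4.0.16 in R 4.3.3 (minimum count 10, minimum total 15, TMM, 1 mean per group, two-sided), and a standard error is the size of the log2 change divided by the square root of F. A simulation of day 7 against day 0 held 15728 gene models, with 100 set to differ by 1.5-fold and 100 by 3-fold. The test found 59% of the former and 100% of the latter, and 4.22% of the gene models it called had not been altered. The approximate 95% interval held the true value in 95.4% of gene models, and in 94.1% of those with at least 1500 counts at day 0. In the data 41.6% of all gene models tested were called at day 7, far more than were altered in the simulation. These rates therefore describe the simulated case and need not hold for the data. DESeq2 1.42.0 and other scalings, filters, limits and samples were alternatives. No sequence or gene name was matched. Gene models named were the 5 most abundant members, the 2 with the smallest and the 2 with the largest change, those nearest the limit and the end of the list, those with the lowest and highest replicate SD, the largest group of 1 first number, and the called members highest and lowest at day 7. Members, lists and the naming rule were chosen with earlier results of these data known. The labels call the replicates biological without saying what separates them, so the tests measure the spread between these samples. Replicate numbers were not taken as pairs.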

Additional observations from a re-analysis of the deposited data

Results flagged for a closer look

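Among the members, 4 changed between successive days in the edgeR test. The steps do not use day 0, but the rule holds any step below 1 on the log2 scale, so the sizes are bounded by the choice. All 4 were falls. The steps from day 0.5 to 1, 1 to 3, 3 to 5 and 5 to 7 gave 1, 1, 0 and 2 of them. Of all gene models tested, edgeR called 1.08%, 3.02%, 1.2% and 2.6% at these steps. Falls were the more frequent there too, at 0.847%, 2.48%, 1.1% and 1.62%, beside rises of 0.234%, 0.543%, 0.0992% and 0.981%. Across the steps from day 0.5 to 1, 1 to 3, 3 to 5 and 5 to 7, unadjusted p was below 0.05 in 22, 8, 6 and 22 of the 100 members, beside 10.4%, 15.1%, 9.28% and 15% of all gene models tested. DESeq2 called 1, 3, 0 and 3, beside 1.16%, 3.68%, 1.4% and 2.91%. These 4 IDs were chosen after their values were seen.

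From day 5 to day 7, DjGI017473-001 fell by 0.62 ± 0.09 on the log2 scale (SE; edgeR adjusted p = 8.58e-05). Its libraries went from 779, 647 and 777 CPM to 449, 493 and 485 CPM, after having stood at 552, 606 and 637 CPM at day 0. In the same step DjGI001164-003 fell by 0.50 ± 0.09 (SE; edgeR adjusted p = 0.00149), from 568, 575 and 607 CPM to 414, 439.6 and 382 CPM, with 514, 505 and 519.6 CPM at day 0. Both were above day 0 in the days before and below it at day 7, and they are the 2 members called in both directions against day 0. The share of all gene models tested that was called in both directions was not computed. The rule also used these day 0 contrasts, so nothing is read from that count. Both steps were called under all 29 alternatives and left-out libraries, with adjusted p up to 0.00449 and 0.0357. DjGI001164-003 is 1 of 3 IDs with its first number and held 99.5% of their counts.

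From day 1 to day 3, DjGI006067-001 fell by 0.35 ± 0.08 on the log2 scale (SE; edgeR adjusted p = 0.00716), from 627, 647 and 726 CPM to 496, 546 and 517 CPM. Over its alternatives the adjusted p ran from 1.42e-05 to 0.444, and the call was lost with ERCC scaling and, at 0.0862, without day 1 replicate 3. From day 0.5 to day 1, DjGI007025-001 fell by 0.58 ± 0.15 (SE; edgeR adjusted p = 0.0487), from 1049, 989.6 and 1039.7 CPM to 859, 746 and 524 CPM. That call held under 13 of 29 alternatives, with adjusted p from 0.000174 to 0.377, and the change was -0.40 without day 1 replicate 3.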

How the results depend on the processing

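Of the 100 members, 87 were chosen again with TMM, 91 with RLE, 99 with upper-quartile and 98 with ERCC scaling, 95 to 100 without any 1 library, and 63 with a limit of 0.3. A member can also leave the list when more abundant gene models enter it. In the edgeR fit with TMM scaling, 99 of the 100 had log2 changes below 0.5 in size at all 5 days. With wider limits of 0.75 and 1 on the left-out libraries, 100 and 100, 99 and 100, and 96 and 99 were within them. Without the 10 most abundant gene models the members' share of counts was 15.2%, 16%, 15.1%, 15.6%, 15.5% and 14.8% at days 0 to 7. The median replicate SD was 0.08 to 0.11 under other scalings and 0.09 to 0.11 without any 1 library.

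The percentages in brackets here are of all gene models tested under the same setting. Calls among the 100 members against day 0 were 12 at day 0.5 (9.99%) and 35 at day 1 (20.9%) with library totals, 13 at day 0.5 (10.3%) with upper-quartile scaling, 11 at day 0.5 (9.41%) with DESeq2, and 10 and 30 at days 0.5 and 1 (11.1% and 25.3%) with only the 6 libraries compared. ERCC scaling gave 0, 2, 11 and 21 at days 0.5, 1, 5 and 7 (5.14%, 12.2%, 28.8% and 34.7%) and 19 in the joint test (33.5%). A threshold of 0.01 gave 1, 4, 15 and 12 at days 0.5, 1, 3 and 5 (4.8%, 12.2%, 22.3% and 25.5%) and 33 in the joint test (30.6%). Without 1 library the ranges were 0 (5.02%) to 13 (11.8%) at day 0.5 and 5 (14.1%) to 30 (21.7%) at day 1. They were 20 (26.9%) to 42 (33.2%) at day 3, 19 (30.2%) to 42 (36.8%) at day 5 and 39 (35.4%) to 51 (38.1%) at day 7. In the joint test the range was 39 to 64, for which the whole-table share is not given here. The step from day 0.5 to 1 gave 0 calls with RLE, upper-quartile and ERCC scaling, the replicate block and a threshold of 0.01 (1.04%, 1.05%, 0.584%, 1% and 0.601%). It gave 2 with library totals (1.25%), 5 with no filter (1%) and 4 with only 6 libraries (1.29%). Without 1 library this step gave 0 to 4. There were 4 without day 0.5 replicate 1 (0.782%), 2 without day 1 replicate 1 (0.756%) and 3 without day 7 replicate 3 (1.32%). There were 0 without day 0 replicate 1, 2 or 3, day 0.5 replicate 2 or 3, day 1 replicate 2 or 3, day 3 replicate 1 or 3, or day 5 replicate 2. Beside these 0 calls the shares ran from 0.567% (without day 1 replicate 3) to 1.1% (without day 0.5 replicate 2). The step from day 1 to 3 gave 3 with library totals and DESeq2 (3.64% and 3.68%), 0 with ERCC scaling (0.817%), 2 with no filter and with only 6 libraries (2.53% and 5.15%), and 0 to 4 without 1 library (2 without day 1 replicate 1, 0 without day 1 replicate 3, 4 without day 7 replicate 3). The step from day 5 to 7 gave 5 with library totals (2.99%). Without 1 library it gave from 2, as without day 0 replicate 1 (2.33%), to 5 without day 7 replicate 1 (2.53%). The step from day 3 to 5 gave from 0, as without day 0 replicate 1 (1.07%), to 1 without day 7 replicate 3 (1.69%).

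Correlations of deviations ran from -0.11 to 0.14 over 45 pairs of same-numbered libraries, and from -0.14 to 0.13 over 90 pairs with different numbers and days. They were above 0.1 in 2, 1 and 1 of 15 pairs for numbers 1, 2 and 3, and in 1 of the 90. Of the 18 libraries, 10 were on average nearest to their own number. A block on the number gave 5, 16, 33, 34 and 46 calls at the 5 days (10%, 19.9%, 31.8%, 35.6% and 41.2% of all gene models tested). The cause of these shifts was not tested. Over 171 results of the named gene models and their alternatives, 4713 of 4905 kept their side of the threshold. None changed sign with a call in either setting, and sign changes of uncalled results were not counted. Members have over 1600 counts in each library, and their median counting SD was 0.02 on the log2 scale, beside a median replicate SD of 0.11. What limits these values was not tested.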
